A study of Rattus norvegicus with 10 samples.

Results

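Pnpla3 and the genes of fatty acid synthesis were followed in the left ventricle of rats through heat acclimation, deacclimation and reacclimation. The set was a written list of 10 genes: Pnpla3, Srebf1, Fasn, Scd, Acaca, Acly, Elovl6, Elovl5, Insig1 and Me1. A gene was measured where a probe set carried its symbol and no other in the platform annotation, and the brightest such probe set stood for the gene. This gave 8 of the 10 genes, out of 14324 genes on the array. The only probe set of Srebf1, the gene of the transcription factor SREBP1, is shared with Pemt, and Fasn, the fatty acid synthase gene, has no listed probe set, so neither has a value here. Each probe set was chosen by its mean signal over all 10 arrays, and the list was drawn up with the group differences of these arrays in view. Pnpla3 heads it and may have been selected on its change, so its levels are described without a test. The other 7 measured genes were tested with limma, a linear model with a spread shared across genes.

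The rats were of the albino Sabra strain and were 3 weeks old when the experiment began. Untreated controls were 1 month old. The AC2d rats, also 1 month old, had been kept at 34 °C for 2 days, and the AC30 rats, 2 months old, had been kept at 34 °C for 30 days. The DeAC rats, 3 months old, had 30 days of heat followed by 30 days at 24 °C, and the ReAC rats, also 3 months old, then returned to 34 °C for 2 days. Each of the 5 groups was represented by 2 pools of 5 animals, with 1 array per pool, so an animal's own level is not visible in any value. Labelled age was equal in control and AC2d rats and in DeAC and ReAC rats. In every other comparison age and heat history cannot be told apart, because no older untreated rats were analysed here.

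De novo lipogenesis builds fatty acids from acetyl-CoA: citrate is cleaved to acetyl-CoA, acetyl-CoA is carboxylated to malonyl-CoA, fatty acid synthase extends the chain with reducing power from NADPH, and elongases and desaturases finish it. In liver and fat these genes are raised by insulin and feeding through SREBP1 and ChREBP, and Insig proteins hold SREBP in the endoplasmic reticulum when sterols are plentiful. The heart takes most of its fatty acids from the blood, and it stores and releases triglyceride on lipid droplets.

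The stretches just upstream of the transcription start are shown for Pnpla3 and Me1, which had their highest levels in the same group, for Insig1, the feedback regulator, and for Scd, which differed between the control pools. They are the 250 bases before the RefSeq start on GRCr8, read 5′ to 3′ on the gene's strand, at chr7:117173278-117173527 (plus strand) for Pnpla3, chr8:96540245-96540494 (minus strand) for Me1, chr4:8057770-8058019 (minus strand) for Insig1 and chr1:253231732-253231981 (minus strand) for Scd. Capitals mark matches to the motifs described after them.
Pnpla3: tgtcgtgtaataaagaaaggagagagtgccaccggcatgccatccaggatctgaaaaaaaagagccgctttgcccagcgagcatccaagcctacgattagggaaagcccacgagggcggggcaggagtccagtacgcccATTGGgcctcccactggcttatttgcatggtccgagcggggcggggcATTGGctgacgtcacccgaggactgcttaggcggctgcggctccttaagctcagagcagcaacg
Me1: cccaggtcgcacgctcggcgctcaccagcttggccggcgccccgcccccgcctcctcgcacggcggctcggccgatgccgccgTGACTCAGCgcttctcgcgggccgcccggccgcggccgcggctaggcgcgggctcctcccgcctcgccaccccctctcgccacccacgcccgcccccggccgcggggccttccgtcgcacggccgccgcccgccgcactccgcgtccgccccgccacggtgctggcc
Insig1: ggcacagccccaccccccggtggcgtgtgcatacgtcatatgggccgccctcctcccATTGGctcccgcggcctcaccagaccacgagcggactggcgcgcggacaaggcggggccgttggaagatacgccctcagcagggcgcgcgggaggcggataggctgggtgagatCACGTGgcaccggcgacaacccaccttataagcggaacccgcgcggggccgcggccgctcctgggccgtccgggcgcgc
Scd: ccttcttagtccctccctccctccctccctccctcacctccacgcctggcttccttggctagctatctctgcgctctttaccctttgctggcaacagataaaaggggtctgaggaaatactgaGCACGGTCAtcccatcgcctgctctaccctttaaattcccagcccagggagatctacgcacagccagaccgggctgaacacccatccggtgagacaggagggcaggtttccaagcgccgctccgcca
The motifs, searched on both strands, were the sterol element TCACNCCAC, the E-box CACGTG, the CCAAT box, the antioxidant element core TGACNNNGC and the nuclear receptor repeat DR1. The Pnpla3 window held the CCAAT box on the reverse strand at -111 to -107 and at -64 to -60, counted from the start. The Me1 window held TGACNNNGC at -167 to -159, and the Scd window held it on the reverse strand at -127 to -119. The Insig1 window held CACGTG at -79 to -74 and the CCAAT box on the reverse strand at -193 to -189. These letters are common: CCAAT occurred in 34% of 33465 upstream windows of the same length, TGACNNNGC in 10.1% and CACGTG in 5.59%. TCACNCCAC, in 0.974% of windows, and DR1, in 0.368%, were in no window of the 7 listed genes that had one, and a match is only a description of the letters. Acaca, Elovl6 and Fasn are named only.

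Before the results, 2 properties of the arrays bear on them. The arrays were of like overall brightness, with median log2 signals of 5.95 to 6.10, and the mean of 8 cardiomyocyte markers lay between 12.92 and 13.01 on every array. The control pools differed from each other more than the pools of any other group: 57 genes differed between them by more than 1 log2 unit, a gap that no other group showed for more than 1 gene. The mean of fat markers was high in the first control pool and in both AC30 pools, as given beside Scd. Atrial markers were low in both DeAC pools. In pieces of tissue, fewer cells of a type and less RNA per cell cannot be told apart.

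**Figure D1:**
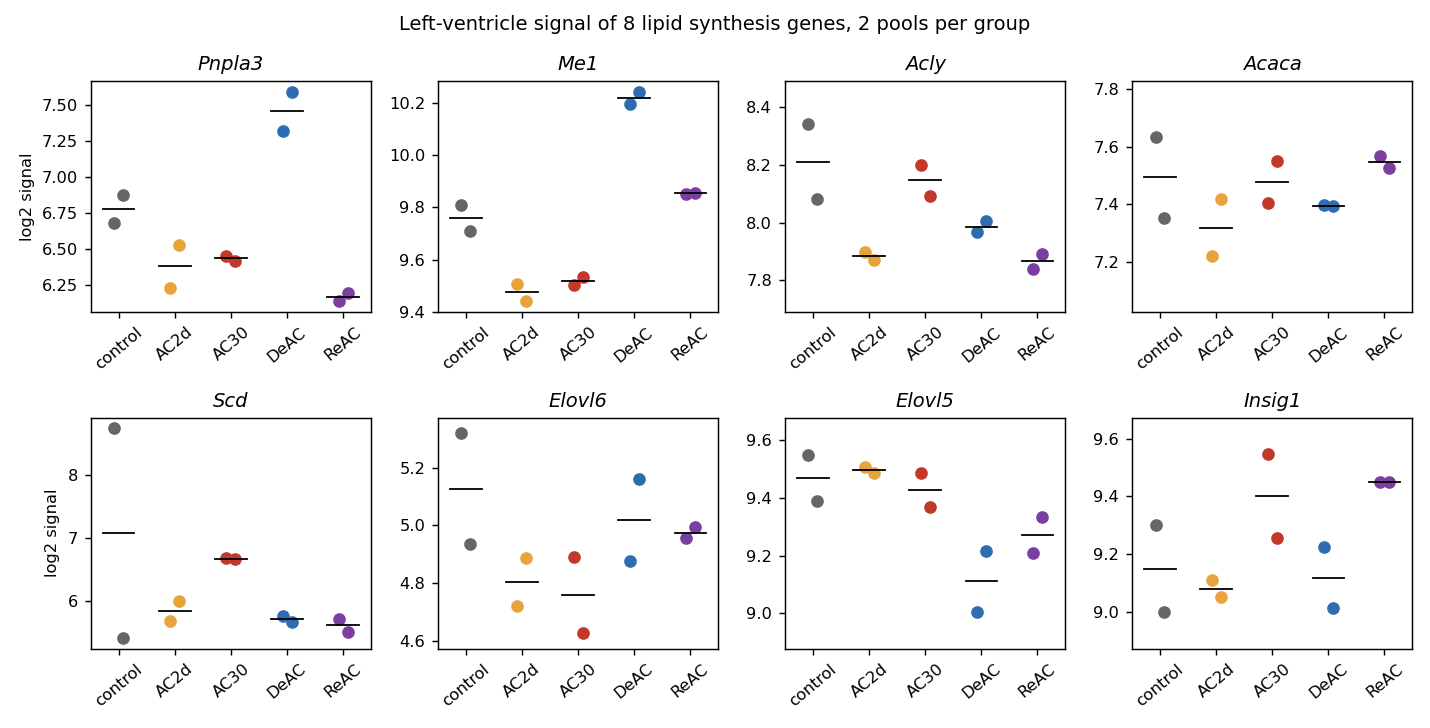
Log2 signal of the 8 measured lipid synthesis genes on each of the 10 arrays, with a point per pool and a bar at each group's mean. Pnpla3 and Me1 had both DeAC pools above the other 8 arrays, and Scd had one control pool at 8.74 and the other at 5.42.

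Pnpla3 encodes a patatin-like phospholipase domain protein of lipid droplets with triglyceride hydrolase and acyltransferase activity, known in the liver of mice and humans as a lipogenic gene induced by SREBP1. Its log2 signals were 6.68 and 6.87 in control hearts, 6.23 and 6.53 after 2 days of heat, 6.45 and 6.42 after 30 days, 7.32 and 7.59 after deacclimation, and 6.13 and 6.19 after reacclimation. Both DeAC pools were above all other arrays and both ReAC pools were below all others. The gene was therefore highest and lowest in the 2 groups of 3-month-old rats, which differed by 2 days at 34 °C. Ordered by mean, DeAC was followed by control, AC30, AC2d and ReAC, and of these neighbours only AC30 and AC2d had pools that overlapped. Its mean signal stood at the 48.6th percentile of all genes, near the middle of the array.

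The difference in Pnpla3 between DeAC and AC30 hearts was 1.02 ± 0.12 on the log2 scale (SE of the limma fit, n = 2 pools per group), a 2.03-fold higher signal. Against controls the DeAC signal differed by 0.68 ± 0.12, or 1.60-fold. ReAC differed from DeAC by -1.30 ± 0.12, leaving 40.7% of the DeAC signal, and from control by -0.62 ± 0.12. The first exposure gave smaller values, -0.40 ± 0.12 for AC2d minus control and -0.34 ± 0.12 for AC30 minus control. The second 2-day exposure minus the first was -0.90 ± 0.17. The 4 comparisons with control share the control pools, and those with DeAC share the DeAC pools, so they are not separate evidence of one another.

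The direction of each Pnpla3 difference was the same whichever of the 10 arrays was left out. DeAC minus control then ranged from 0.54 to 0.82, ReAC minus DeAC from -1.43 to -1.15 and DeAC minus AC30 from 0.88 to 1.16. AC2d minus control ranged from -0.55 to -0.25, the widest range relative to its size. In all 6 comparisons between single groups the pools of Pnpla3 did not overlap, but that was common: it held for 43.7% of all genes in AC2d, 45.0% in AC30, 49.2% in DeAC and 55.0% in ReAC against control, for 46.7% in ReAC against DeAC and for 52.7% in DeAC against AC30. Both DeAC pools lay above the other 8 arrays for 7.89% of genes, and both ReAC pools below the other 8 for 5.38%. The authors' deposited table of signed fold changes against control lists Pnpla3 at -1.30 for AC2d, -1.25 for AC30, 1.63 for DeAC and -1.56 for ReAC, and does not state its test.

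Me1 encodes cytosolic malic enzyme, which makes NADPH while turning malate into pyruvate. Its log2 signals were 9.81 and 9.71 in control, 9.51 and 9.44 in AC2d, 9.50 and 9.53 in AC30, 10.20 and 10.24 in DeAC, and 9.85 and 9.86 in ReAC hearts. Both DeAC pools were above the other 8 arrays, and only the AC2d and AC30 pools, the lowest, overlapped between neighbours in the order of group means. Me1 rose by 0.70 ± 0.05 log2 from AC30 to DeAC (SE, n = 2 pools per group; limma adjusted p = 2.78e-06), a 1.63-fold difference. It was 0.46 ± 0.05 higher in DeAC than in control hearts (limma adjusted p = 0.000191) and fell by 0.37 ± 0.05 from DeAC to ReAC (limma adjusted p = 0.00201). These 3 calls passed whichever array was left out.

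After the first heat exposure the differences in Me1 were smaller. AC2d minus control was -0.29 ± 0.05 (limma adjusted p = 0.0113), a call lost without the first AC2d pool (adjusted p = 0.0694) or the second (0.163). AC30 minus control was -0.24 ± 0.05 (limma adjusted p = 0.0129), lost without the first control pool (0.0587) or the first AC30 pool (0.0816). ReAC minus control was 0.09 ± 0.05 and did not pass (limma adjusted p = 0.305). The second exposure minus the first was -0.08 ± 0.07 (limma adjusted p = 0.887). Whether the 2 genes differ from each other in this value was not tested.

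Acly encodes ATP citrate lyase, the enzyme that releases acetyl-CoA from citrate in the cytosol. Its log2 signals were 8.34 and 8.08 in control, 7.90 and 7.87 in AC2d, 8.20 and 8.09 in AC30, 7.97 and 8.004 in DeAC, and 7.84 and 7.89 in ReAC hearts. Both control pools lay above all AC2d, DeAC and ReAC pools and overlapped those of AC30. Acly fell by 0.34 ± 0.08 in ReAC against control (SE, n = 2 pools per group; limma adjusted p = 0.0180), and that call was lost without the first control pool (adjusted p = 0.134), the first ReAC pool (0.135) or the second (0.0795). It was also lost with the values as deposited (0.0696), median scaling (0.197), the adipocyte covariate (0.121) or only the groups compared (0.0704). The AC2d value was nearly as large, -0.33 ± 0.08, and did not pass (limma adjusted p = 0.0588), and neither did the DeAC value of -0.23 ± 0.08 (0.123).

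Acaca encodes acetyl-CoA carboxylase alpha, which makes malonyl-CoA, the committed step of fatty acid synthesis. Its log2 signals were 7.64 and 7.35 in control, 7.22 and 7.42 in AC2d, 7.41 and 7.55 in AC30, 7.40 and 7.39 in DeAC, and 7.57 and 7.53 in ReAC hearts. The first control pool was the highest array and the first AC2d pool the lowest, and the other arrays lay between the control pools. Acaca passed the test in no comparison.

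Scd encodes stearoyl-CoA desaturase, which puts the first double bond into saturated fatty acids and is abundant in fat. Its log2 signals were 8.74 and 5.42 in control, 5.70 and 6.01 in AC2d, 6.69 and 6.67 in AC30, 5.78 and 5.67 in DeAC, and 5.73 and 5.52 in ReAC hearts. The first control pool was the highest of all arrays and the second control pool the lowest, and among the heated groups both AC30 pools were highest. Scd passed in no comparison with all arrays in the fit: AC2d minus control was -1.23 ± 0.66 (SE, n = 2 pools per group; limma adjusted p = 0.460), DeAC minus control -1.36 ± 0.66 (0.243) and ReAC minus control -1.46 ± 0.66 (0.189). The authors' deposited table gives Scd signed folds of -2.34 in AC2d, -1.32 in AC30, -2.68 in DeAC and -2.85 in ReAC against control.

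Those Scd differences from control turned on which control pool was used. Without the first control pool, AC2d minus control became 0.43, DeAC minus control 0.30 and ReAC minus control 0.20, and AC30 minus control became 1.26 (limma adjusted p = 7.56e-05). Without the second, they became -2.90 (1.46e-08), -3.03 (3e-09), -3.13 (2.95e-09) and -2.07 (1.79e-06) in the same order. Each of these fits has 1 control pool, whose spread is taken from the other 4 groups, so the p-values rest on a single control array. DeAC minus AC30, which uses no control pool, was -0.95 ± 0.66 with all arrays (adjusted p = 0.384). It was -0.96 when either control pool was left out, and it then passed (5.66e-05 without the first, 3.84e-05 without the second).

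The mean of the fat cell markers was high on the arrays where Scd was high. The mean log2 signal of the 11 measured of 12 adipocyte markers was 7.01 and 5.94 in control, 5.97 and 6.04 in AC2d, 6.58 and 6.54 in AC30, 5.90 and 5.83 in DeAC, and 5.97 and 5.94 in ReAC hearts. Ucp1, the uncoupling protein of brown fat, stood at 8.43 in the first control pool, at 7.06 and 7.003 in the AC30 pools and between 4.49 and 4.67 on the other 7 arrays. Adipoq, the fat hormone adiponectin, stood at 7.30 in the first control pool and 5.26 in the second, and at 6.82 and 6.46 in AC30. Not every marker did so: Retn read 5.79 and 5.82 in control and 5.91 and 5.72 in AC30. From AC30 to DeAC 4 of the 11 were called lower and 1 higher, where 7.45% of all genes fell and 9.85% rose. In AC30 against control 0 were called higher and 1 lower, where 3.57% of all genes were higher and 4.96% lower. With the adipocyte marker mean as a covariate, DeAC minus AC30 of Scd turned to 1.19 (limma adjusted p = 0.000117) and DeAC minus control to 0.54 (0.0342). The slope of that covariate rests mostly on the gap between the control pools, and the part of fat tissue in the Scd values was not tested further. These markers did not follow Pnpla3 or Me1: both DeAC pools, where Pnpla3 and Me1 were highest, had the lowest marker means. Aqp7, a glycerol channel on the marker list that was bright on all arrays, was the exception, with its highest signals in DeAC, within a range of 10.23 to 11.23 over the arrays.

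**Figure D2:**
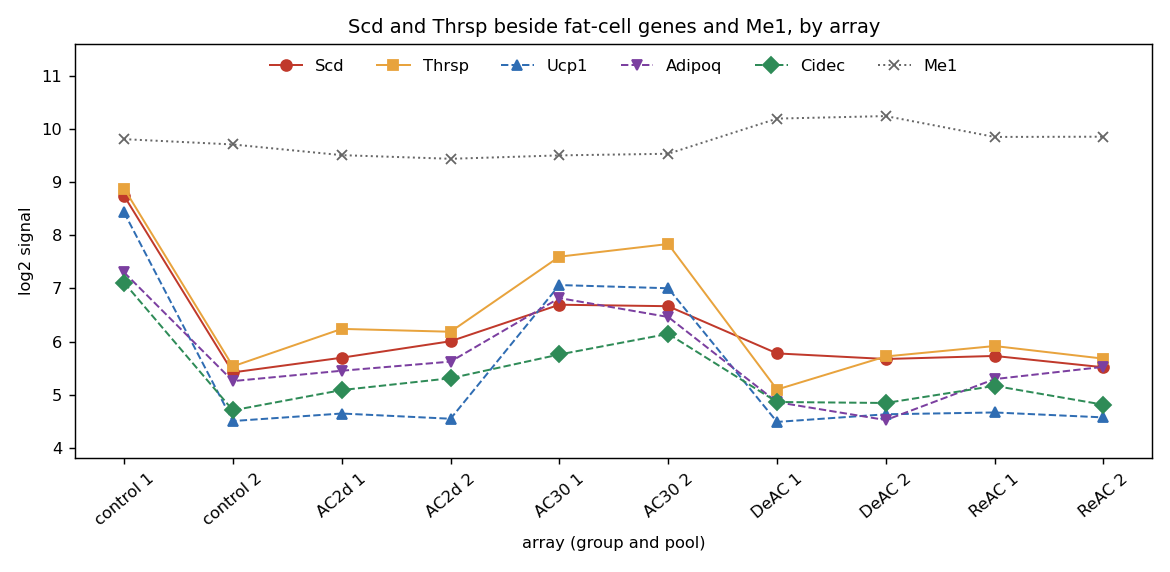
Log2 signal (vertical axis) of Scd, Thrsp, Me1 and the fat-cell genes Ucp1, Adipoq and Cidec on each of the 10 arrays (horizontal axis, by group and pool). Scd, Thrsp and the fat-cell genes were highest in the first control pool and next in the AC30 pools, and Me1 was not.

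Of the elongases, Elovl5, which lengthens polyunsaturated fatty acids, had log2 signals of 9.55 and 9.39 in control, 9.51 and 9.49 in AC2d, 9.49 and 9.37 in AC30, 9.01 and 9.22 in DeAC, and 9.21 and 9.33 in ReAC hearts. Both DeAC pools were below every pool of the first 3 groups. Elovl5 fell by 0.36 ± 0.08 in DeAC against control (SE, n = 2 pools per group; limma adjusted p = 0.0129), a call lost without the first control pool (0.0754) or the first DeAC pool (0.117). It fell by 0.31 ± 0.08 from AC30 to DeAC (limma adjusted p = 0.0127), lost without the first AC30 pool (0.120) or the first DeAC pool (0.142). With the adipocyte or the atrial marker mean as a covariate the DeAC minus control call was lost (0.108 and 0.908), as it was with median scaling (0.162), no mean-variance trend (0.0699) or only the groups compared (0.0620). The DeAC minus AC30 call was lost with either covariate, median scaling, no trend or the values as deposited, with adjusted p between 0.0586 and 0.972. ReAC minus control was -0.20 ± 0.08 and did not pass (0.135). Elovl6, which lengthens saturated and monounsaturated chains, had log2 signals of 5.32 and 4.93 in control, 4.72 and 4.89 in AC2d, 4.89 and 4.63 in AC30, 4.88 and 5.16 in DeAC, and 4.96 and 4.99 in ReAC hearts. The first control pool was the highest array and the second AC30 pool the lowest. Elovl6, whose mean signal stood at the 24.4th percentile of all genes, passed in no comparison.

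Insig1 encodes the endoplasmic reticulum protein that retains the SREBP and SCAP complex and is itself an SREBP target. Its brightest probe set read 9.30 and 8.998 in control, 9.11 and 9.05 in AC2d, 9.55 and 9.26 in AC30, 9.22 and 9.01 in DeAC, and 9.45 and 9.45 in ReAC hearts on the log2 scale. Both ReAC pools were above both pools of control, AC2d and DeAC. A second probe set of the gene was also highest in ReAC, at 9.07 and 9.09, against 8.74 and 8.44 in control and 8.71 and 8.79 in DeAC. Insig1 passed in no single comparison of the 6: ReAC minus DeAC was 0.33 ± 0.10 (SE, n = 2 pools per group; limma adjusted p = 0.108), ReAC minus control 0.30 ± 0.10 (0.0877) and DeAC minus AC30 -0.28 ± 0.10 (0.0841). With the mean of both probe sets ReAC minus control was 0.39 and passed (limma adjusted p = 0.0106).

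**Figure D3:**
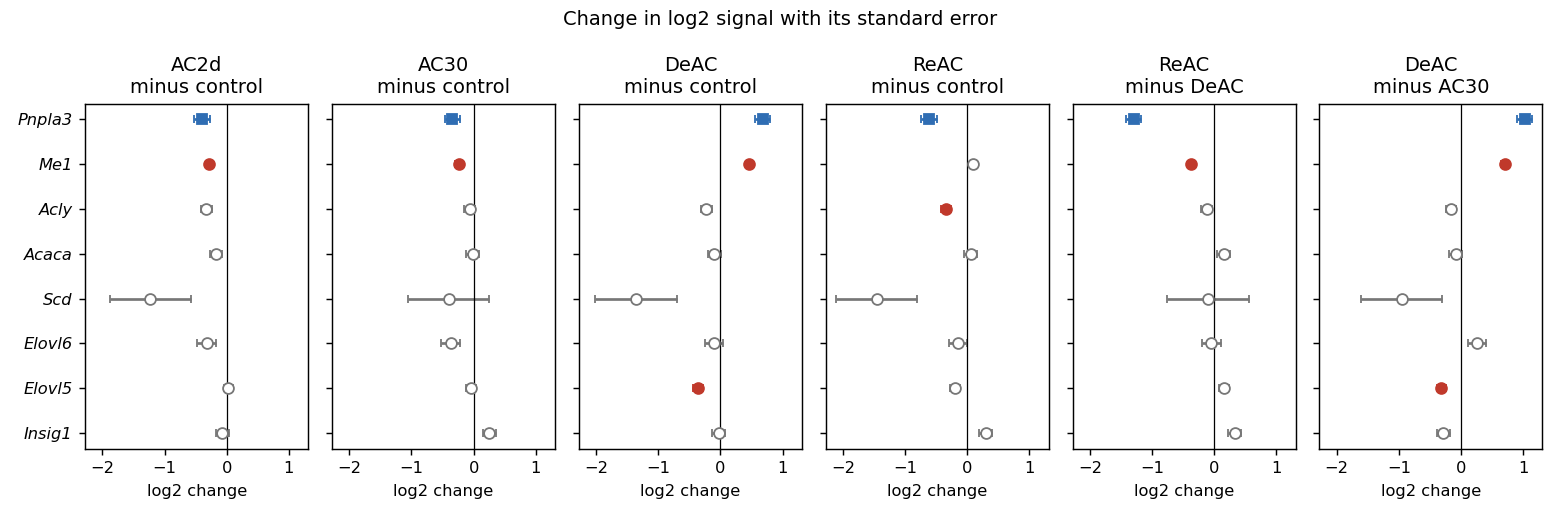
Log2 difference in each of 6 comparisons for the 8 measured genes, with bars of 1 SE (limma, n = 2 pools per group). Blue squares are Pnpla3, which was not tested, filled red points passed at an adjusted p under 0.05 and open grey points did not.

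Counted over the 7 tested genes, 1 was lower in AC2d than in control (Me1), where 2.53% of all 14324 genes were called in either direction and 1.86% were lower. In AC30 against control 1 was lower (Me1; 8.53% of all genes called), in DeAC against control 1 was higher and 1 lower (Me1 and Elovl5; 8.22%), and in ReAC against control 1 was lower (Acly; 10.9%). From DeAC to ReAC 1 fell (Me1; 3.91%), and from AC30 to DeAC 1 rose and 1 fell (Me1 and Elovl5; 17.3%). One call among 7 genes is the smallest count above 0 that so few genes allow. The second exposure minus the first passed for 0 of 7 in limma, with 2 of 7 at an unadjusted p under 0.05, and 0.300% of all genes passed. In the F test over all 5 groups 4 of 7 passed, against 22.2% of all genes: Me1 (limma adjusted p = 5.17e-06), Elovl5 (0.0102), Acly (0.0211) and Insig1 (0.0402). Brighter genes were called more often. Without the dimmest 40% of genes 4 of 6 passed the F test, against 37.6% of genes. From AC30 to DeAC 2 of 6 then passed, against 29.8%.

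The measured genes took different directions. From AC30 to DeAC, Pnpla3 and Me1 were higher by 1.02 and 0.70 log2, Elovl5 was lower by a difference of -0.31, and the median over the 8 measured genes was -0.12, beside 0.01 over all genes. From DeAC to ReAC the median of the 8 was -0.07 beside -0.01, with Pnpla3 at -1.30 and Insig1 at 0.33. The medians against control were -0.30 in AC2d, -0.15 in AC30, -0.10 in DeAC and -0.17 in ReAC, where the medians of all genes lay between -0.02 and 0.00.

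The wider pathway was read from 6 written lists of other genes. The shares of all genes given beside these lists include dim genes, which were called less often. No share among genes of like brightness was taken for the lists. In triglyceride synthesis, the pathway that stores fatty acids on glycerol, 15 of 16 listed genes were measured. From AC30 to DeAC 6 rose and 1 fell, where 9.85% of all genes rose and 7.45% fell, and the median of the list was 0.10. Gpam, the mitochondrial acyltransferase that starts the pathway, read 9.75 and 9.84 in AC30 and 10.54 and 10.52 in DeAC, with 10.13 and 10.10 in control and 10.26 and 10.18 in ReAC, so that both DeAC pools were highest. It rose by 0.73 ± 0.06 (limma adjusted p = 3.07e-06). Dgat1, which adds the last acyl chain, rose by 0.69 ± 0.07 (2.21e-05), Agpat2, an acyltransferase, by 0.79 ± 0.13 (0.000769) and the phosphatidate phosphatase Lpin1 by 0.47 ± 0.06 (0.000137). The 1 that fell was Agpat4, an acyltransferase, with a difference of -1.10 ± 0.20 (0.00147), named to complete the count after its value was seen. In AC30 against control 5 of the 15 were lower and 0 higher, where 3.57% of all genes were higher and 4.96% lower, but the count was 3 without either AC2d pool and 2 without the first AC30 pool.

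The same list gave 5 higher and 1 lower in DeAC against control, where 4.45% of all genes were higher and 3.77% lower. The count of higher genes was 3 without the second control pool or either DeAC pool. From DeAC to ReAC 4 of 15 fell and 0 rose, where 1.70% of all genes rose and 2.21% fell, and the count of lower genes was 2 without the first DeAC pool and 1 without the second ReAC pool. Dgat1 fell by 0.42 ± 0.07 (limma adjusted p = 0.00467), lost without the second ReAC pool (0.0701). Agpat3, another acyltransferase of glycerolipid synthesis, fell by 0.59 ± 0.06 from DeAC to ReAC as well (limma adjusted p = 0.00026). It was also lower in DeAC than in control, with a difference of -0.52 ± 0.06 (0.000362), where Gpam and Dgat1 were higher, and lower in ReAC than in control, with -1.11 ± 0.06 (4.22e-07).

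Lipid droplet and lipolysis genes, 16 measured of 21 listed, gave 7 higher and 1 lower from AC30 to DeAC, with a list median of 0.20, and the count of higher genes was 4 without the second DeAC pool. Fitm2, which helps droplets bud from the endoplasmic reticulum, rose by 0.64 ± 0.05 (limma adjusted p = 4.42e-06), Pnpla2, the main triglyceride lipase and a relative of Pnpla3, by 0.48 ± 0.05 (5.81e-05), the droplet coat gene Plin5 by 0.68 ± 0.12 (0.00106) and the lipoprotein lipase gene Lpl by 0.42 ± 0.05 (9.94e-05). In AC30 against control 6 of the 16 were lower and 0 higher, a count of 3 without the first AC30 pool. Of all genes, 9.85% rose and 7.45% fell from AC30 to DeAC, and 3.57% were higher and 4.96% lower in AC30 than in control. Fitm2 fell by 0.55 ± 0.05 from DeAC to ReAC (limma adjusted p = 0.000119). It was the only one of the 16 called in that comparison, where 3.91% of all genes were called. In ReAC against control 1 was higher and 4 were lower, where 5.63% of all genes were higher and 5.28% lower. The lower count was 2 without the second control pool or the second ReAC pool. The 1 higher was Pnpla2, by 0.40 ± 0.05 (limma adjusted p = 0.000439). Unlike Pnpla3, Pnpla2 was highest in ReAC, at 10.61 and 10.55, against 10.39 and 10.40 in DeAC. The 1 that fell from AC30 to DeAC was G0s2, with a difference of -0.59 ± 0.12 (limma adjusted p = 0.00312).

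The list written for NADPH supply takes in genes of the pentose phosphate pathway and of mitochondrial enzymes, and leaves out Me1. Of its 8 measured genes 4 rose and 1 fell from AC30 to DeAC, with a list median of 0.21. In that comparison 9.85% of all genes rose and 7.45% fell. Those that rose were the mitochondrial malic enzyme Me3, by 0.60 ± 0.07 (limma adjusted p = 7e-05), the cytosolic isocitrate dehydrogenase Idh1, by 0.42 ± 0.07 (0.000496), Taldo1 of the pentose phosphate pathway, by 0.31 ± 0.07 (0.00596), and Idh2, by 0.15 ± 0.04 (0.0299), which is named to complete the count after its value was seen. Tkt, the transketolase of that pathway, fell by 0.55 ± 0.08 (0.000473). The count of higher genes was 2 without the first AC30 pool.

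Among 20 measured genes of the rest of fatty acid synthesis, elongation, desaturation and activation, 7 rose and 2 fell from AC30 to DeAC. The list median was 0.06. Of all genes, 9.85% rose and 7.45% fell there, and 1.70% rose and 2.21% fell from DeAC to ReAC. Acsl6, an acyl-CoA synthetase, read 6.56 and 6.77 in AC30 and 7.93 and 7.81 in DeAC, the lowest and highest groups, and rose by 1.20 ± 0.11 (limma adjusted p = 8.61e-06). Scd2, the second stearoyl-CoA desaturase gene, went the other way, with 9.19 and 8.91 in AC30, 7.64 and 7.88 in DeAC, and 8.38 and 8.54 in ReAC hearts, and fell by 1.29 ± 0.11 (8.8e-06). Its control pools, at 8.49 and 8.19, lay much closer together than those of Scd, so the wide gap between the control pools was not shared by both desaturase genes. The count of 7 fell to 4 without either AC30 pool and to 3 without the second DeAC pool. In the other comparisons this list gave at most 4 calls in a direction, and from DeAC to ReAC the count of 4 lower genes was 2 without either AC2d pool and 0 without any one of the 4 pools compared.

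The SREBP, LXR and ChREBP regulators, 13 measured of 15, gave 4 higher and 0 lower in DeAC against control, and the higher count was 2 without the first control pool or either ReAC pool and 0 without either DeAC pool. They gave 4 higher and 1 lower in ReAC against control, with a higher count of 1 without either ReAC pool. Of all genes, 4.45% were higher and 3.77% lower in DeAC against control, and 5.63% and 5.28% in ReAC against control. The 4 called higher were the same in both comparisons: Mid1ip1, Usp20, Mlx and Nr1h2. Mid1ip1 was higher by 0.32 ± 0.07 in DeAC (limma adjusted p = 0.0119) and by 0.46 ± 0.07 in ReAC (0.000789). The regulator called lower in ReAC against control was Ppargc1b, a coactivator of SREBP1. It also fell by 0.51 ± 0.06 from DeAC to ReAC (limma adjusted p = 0.000516). With the atrial marker mean as a covariate that difference was -0.26 and did not pass (0.768). Thrsp, a lipogenic regulator abundant in fat, read 8.88 and 5.53 in control, 7.60 and 7.84 in AC30 and 5.10 and 5.72 in DeAC hearts. Its control pools lay apart as those of Scd and of the fat markers did. Thrsp fell by 2.31 ± 0.67 from AC30 to DeAC (limma adjusted p = 0.0295), and the call was lost without any one of those 4 pools, with adjusted p between 0.0802 and 0.165. With the adipocyte marker mean as a covariate the Thrsp difference was -0.20 and did not pass (0.765).

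Sterol synthesis is the other arm under SREBP. Of 17 measured genes of 24, 0 were called in AC2d or AC30 against control by limma, with 5 and 3 at an unadjusted p under 0.05. Of all genes, 2.53% were called in AC2d and 8.53% in AC30 against control. At most 3 of the 17 were called in the other comparisons between groups, where 3.91% to 17.3% of all genes were called. Fdft1, squalene synthase, was higher in ReAC than in control by 0.79 ± 0.06 (limma adjusted p = 2.75e-06), while the next enzyme, squalene epoxidase, encoded by Sqle, was lower by a difference of -0.62 ± 0.11 (0.00340), a call lost without the first ReAC pool (0.0568).

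**Figure D4:**
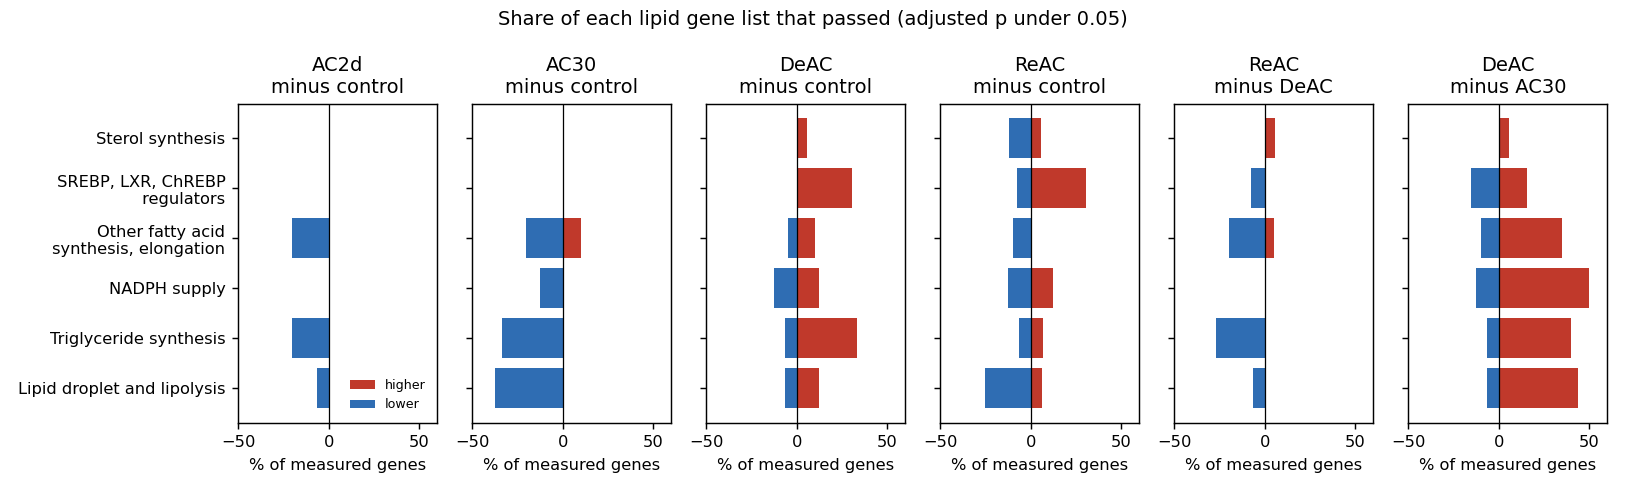
Percentage of the measured genes of each written list that were called higher or lower in each comparison (limma, adjusted p under 0.05), with higher genes to the right and lower genes to the left of 0. From AC30 to DeAC the triglyceride, droplet and NADPH lists had 6 of 15, 7 of 16 and 4 of 8 genes higher, beside 9.85% of all genes. That share includes dim genes, which were called less often. In either direction 17.3% of all genes were called there, and 29.8% without the dimmest 40%.

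Beside the lipid genes, markers of other cell types moved in several comparisons. The mean of 7 atrial markers was 10.95 and 8.98 in control hearts and 11.23 and 11.30 in AC2d. It was 11.80 and 11.66 in AC30, 6.92 and 6.94 in DeAC and 10.41 and 10.45 in ReAC. From AC30 to DeAC 7 of 7 were called lower, where 7.45% of all genes fell. In DeAC against control 6 of 7 were lower, beside 3.77% of all genes. From DeAC to ReAC 6 of 7 rose, beside 1.70%. The mean of 8 fibroblast markers was 9.93 and 9.94 in AC30, 9.33 and 9.34 in DeAC and 9.58 and 9.54 in ReAC. All 8 of 8 were called lower from AC30 to DeAC. In DeAC against control 1 fibroblast marker was higher and 4 were lower, beside 4.45% and 3.77% of all genes. From DeAC to ReAC 3 rose, beside 1.70%. In AC30 against control, where triglyceride and droplet genes were lower, 7 of 7 atrial markers were higher and 4 of 6 endothelial markers lower. Of the fibroblast markers 4 were higher and 1 lower there, where 3.57% of all genes were higher and 4.96% lower. Endothelial markers were also lower in DeAC and in ReAC against control, 3 of 6 in each, beside 3.77% and 5.28% of all genes. With the atrial marker mean as a covariate, DeAC minus AC30 was 0.60 log2 for Pnpla3 and 0.93 for Me1 (limma adjusted p = 0.0199), and ReAC minus DeAC of Me1 was -0.54 and no longer passed (0.0968). With that covariate the share of all genes called from AC30 to DeAC dropped from 17.3% to 0.649%, and the genes called higher numbered 2 in triglyceride synthesis and 0 in the droplet, NADPH and other fatty acid lists. Some differences were about as large or larger in that fit, such as those of Gpam (0.80), Pnpla2 (0.61), Idh1 (0.49) and Acsl1 (0.32), and others were smaller, such as those of Dgat1 (0.32), Fitm2 (0.40), Me3 (0.13) and Lpl (0.10). Its slope rests on differences within groups, mostly between the control pools, and the part of tissue make-up in these values was not tested further. The 8 cardiomyocyte markers all lie near the bright end of the array. From AC30 to DeAC 1 was called higher, beside 9.85% of all genes, and from DeAC to ReAC 1 lower, beside 2.21%. In AC30 and in ReAC against control 1 of the 8 was lower in each, beside 4.96% and 5.28% of all genes. Of 5 measured hepatocyte markers, Alb and Apob lay at 4.14 to 4.60 and 3.69 to 3.97, near the dim end of the array. Ttr, the transthyretin gene on the same list, was brighter, at 8.57 and 8.96 in control, 8.08 and 8.10 in AC30 and 8.79 and 8.91 in DeAC. From AC30 to DeAC 1 of the 5 was called higher, beside 9.85% of all genes.

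The genes whose signal followed Pnpla3 most closely over the 10 arrays were sought among 1346 genes whose group means spanned at least 0.5 log2 units. The 6 closest were Ulk1, an autophagy kinase (Pearson's r 0.95, Spearman's rho 0.96), Ucp3, a mitochondrial carrier of muscle (0.92 and 0.72), Fitm2 (0.91 and 0.64), Jph2, a junctional membrane protein of cardiomyocytes (0.90 and 0.76), Ap1b1, a clathrin adaptor subunit (0.90 and 0.78), and Fcer2, an immunoglobulin E receptor (0.90 and 0.89). Of the other members Me1 had the highest Pearson value, 0.72, with a Spearman value of 0.30, and Acly the highest Spearman value, 0.44, with a Pearson value of 0.20. Insig1 had the lowest of both, at -0.54 and -0.61. Scd stood at -0.07 and -0.01. The arrays fall into 5 groups and share 1 normalization, so these values describe the group pattern and carry no test.

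**Figure D5:**
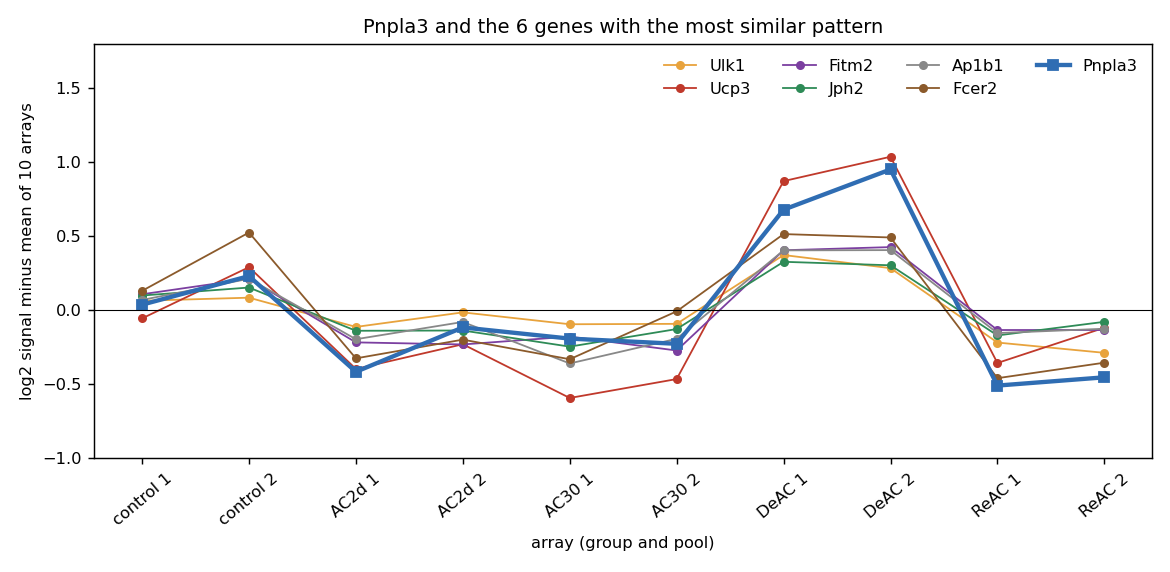
Log2 signal of Pnpla3 and of the 6 genes most like it on the 10 arrays, each shown as the difference from its own mean over the arrays. All lay above their own mean in both DeAC pools.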

How the data were processed

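RNA from the left ventricle was hybridised to 1-colour Affymetrix arrays, 1 per pool of 5 rats. The authors deposited a log2 value per probe set and array; the background correction, normalization and summary steps are not given in the sources used here. The authors also deposited signed fold changes against control (a score, negative where lower) for 651 probe sets, which lay within 0.04 log2 of differences between the group means.

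Of 27342 probe sets, the platform annotation, which can be old, gave 1 symbol for 15097, several for 323 and none for 11922, and 15067 matched RefSeq gene names. The brightest probe set by mean over all arrays stood for a gene (499 genes had more than 1). Values were quantile normalized. limma 3.58.1 in R 4.3.3 fitted the 5 group means over all 10 arrays with a mean-variance trend (5 residual degrees of freedom, 8.31 prior). Tests were two-sided, with p-values adjusted by Benjamini-Hochberg over all 14324 genes and a threshold of 0.05. The fit was also run on simulated independent normal values. These hold no gap between control pools and no change in tissue make-up, so that run does not bear on either. Arrays give no counts, so their number, 2 pools a group, limits the precision.

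The members and lists were chosen with earlier results of these data known. Named were all members, up to 4 genes per list and comparison with the smallest p among those that passed, and the 6 genes most like Pnpla3. Alternatives were the deposited values as they stand, median scaling, no trend, a filter on the dimmest 40% of genes, all or averaged probe sets, a replicate block, other thresholds, marker covariates, only the groups compared, and leaving out each array. Python 3.11.15 with matplotlib 3.10.9 drew the figures.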

Additional observations from a re-analysis of the deposited data

How the results depend on the processing

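Counts of members called moved with the settings. For AC2d minus control the count of 1 became 0 with median scaling, no trend, a threshold of 0.01 or only the groups compared, 2 without the dimmest 40% of genes or at 0.10, and 3 with the atrial marker mean as a covariate. For AC30 minus control the count of 1 became 0 with median scaling, no trend, a threshold of 0.01 or only the groups compared, and 2 with the adipocyte covariate. With the atrial covariate it was 1, but there the gene was Scd and Me1 lost its call (limma adjusted p = 0.0591). For DeAC minus control 2 became 1 with median scaling, no trend, 0.01 or only the groups compared, and with either covariate the 2 were Me1 and Scd, not Me1 and Elovl5. For ReAC minus control 1 became 0 at 0.01 or with only the groups compared, 2 with averaged probe sets, the replicate block or 0.10, and 3 with the atrial covariate; it was 1 with values as deposited, median scaling or the adipocyte covariate, but there the gene was Insig1 and Acly lost its call. For ReAC minus DeAC 1 became 2 with the replicate block, the adipocyte covariate or only the groups compared. With the atrial covariate it was 1, but again the gene was Scd and Me1 lost its call (limma adjusted p = 0.0968). For DeAC minus AC30 2 became 1 with values as deposited, median scaling, no trend or 0.01, and 3 with the replicate block, 0.10 or only the groups compared. With either covariate the 2 were again Me1 and Scd. For the second minus first heat response 0 became 1 with the atrial covariate. For the difference among the 5 groups 4 became 3 with all probe sets, 2 with values as deposited or median scaling and 1 with no trend or 0.01. It stayed 4 with the covariates, but Scd replaced Acly with the adipocyte covariate and Elovl5 with the atrial covariate. Leaving out 1 array gave 0 to 3 (AC2d minus control), 0 to 2 (AC30 minus control), 1 to 4 (DeAC minus control), 0 to 2 (ReAC minus control), 1 to 2 (ReAC minus DeAC), 1 to 4 (DeAC minus AC30), 0 to 1 (second minus first) and 2 to 5 (the 5 groups). For Scd the control pools decided the direction. Without the first, against without the second, AC2d minus control was 0.43 and -2.90, AC30 minus control 1.26 and -2.07, DeAC minus control 0.30 and -3.03, ReAC minus control 0.20 and -3.13, and second minus first -0.53 and 2.80; these are the ends of their ranges. ReAC minus DeAC of Scd ranged from -0.21 to 0.0049, without the first and the second ReAC pool.

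With the adipocyte covariate Scd turned direction to 0.23 (AC2d minus control), 0.54 (DeAC minus control), 0.16 (ReAC minus control), 1.19 (DeAC minus AC30) and -0.60 (second minus first). With the atrial covariate Scd became 3.75 (DeAC minus control), 7.12 (DeAC minus AC30) and -2.57 (second minus first). Under it DeAC minus AC30 also turned for Elovl5 (0.10), Insig1 (0.49), Plin5 (-0.17), Nr1h3 (0.47) and Thrsp (5.76), DeAC minus control for Acly (0.18) and Nr1h2 (-0.050), ReAC minus DeAC for Insig1 (-0.23) and Acsl6 (0.0060), and AC30 minus control for Insig1 (-0.033). The slope of a covariate rests on differences within groups, which were largest between the control pools; the cause was not tested. Pnpla3 kept its direction in every comparison and setting, and with the atrial covariate DeAC minus AC30 was 0.60, DeAC minus control 0.41, AC30 minus control -0.19, ReAC minus DeAC -0.98 and second minus first -0.70.

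Of the list counts, those from AC30 to DeAC moved by over 1.5 times with the atrial covariate (triglyceride synthesis 6 to 2 higher, droplet 7 to 0, NADPH 4 to 0, other fatty acid 7 to 0). The calls over all genes dropped there from 17.3% to 0.649%. In that fit Gpam was at 0.80, Pnpla2 at 0.61, Idh1 at 0.49 and Lpin1 at 0.40, and none of these passed. Smaller or turned were Acsl6 (0.53), Dgat1 (0.32), Mecr (0.27), Me3 (0.13), Lpl (0.10) and Plin5 (-0.17), which did not pass either. For the other fatty acid list alone, the count also moved to 4 at 0.01 or with the adipocyte covariate. The counts against control and from DeAC to ReAC were less stable. In AC30 against control the lower genes of triglyceride synthesis went from 5 to 2 or 3 in 7 alternatives, and those of the droplet list from 6 to 3 with median scaling, 2 with no trend, 1 with only the groups compared and 0 with the atrial covariate. Higher triglyceride genes in DeAC against control went from 5 to 3 with no trend, 0.01 or only the groups compared and 2 with the atrial covariate, and lower ones from DeAC to ReAC from 4 to 2 with no trend or the atrial covariate. Lower droplet genes in ReAC against control went from 4 to 1 with median scaling and 2 with no trend or 0.01. Counts of 4 among the regulators and the other fatty acid genes fell to between 0 and 2 in several alternatives. These list alternatives were chosen after seeing the data.

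The replicate numbers do not pair the pools: deviations of same-numbered pools correlated between -0.08 and 0.21 over 10 pairs of groups, with 1 above 0.1. A replicate block changed 3 of 118 changes of named genes, all to passing: Insig1 in ReAC minus control (limma adjusted p = 0.0221), ReAC minus DeAC (0.0285) and DeAC minus AC30 (0.0199). With 2 pools a group, a difference that did not pass is not shown to be absent.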
